A study of Mus musculus with 8 samples.

Results

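Adam9, Cyrib, Tmtc3, Hdac1, Dynlt3, Cacna2d1 and Tprgl are 7 of the 19937 genes measured in NMuMG cells, a mouse mammary gland epithelial line. They were chosen for their large rises in the siControl arrays labelled TGFβ, as compared to siControl arrays without it. Each gene was represented by the probe set with its symbol alone and the highest mean over the 8 arrays, and all 7 were found. The study asked which genes depend on Klf4, a zinc-finger transcription factor, before and during TGFβ-induced epithelial-mesenchymal transition (EMT). RNA was profiled on Affymetrix gene arrays in 4 groups of 2 arrays each. In the order used here, the groups are siKlf4 with TGFβ, siKlf4 without TGFβ, siControl with TGFβ and siControl without TGFβ. TGFβ was given at 2 ng/ml for 2 days, siKlf4 is a pool of 2 siRNAs against Klf4, and siControl is a control siRNA. All groups are one NMuMG subclone and all were transfected. The values are log2 values after Robust Multi-Array (RMA) normalization by the authors, so a difference of 1 is a 2-fold change.

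TGFβ binds receptor kinases that phosphorylate Smad proteins, which enter the nucleus and raise or lower target genes. In NMuMG cells it is known for driving the loss of epithelial junctions and the gain of mesenchymal features. The 7 genes belong to no single known pathway. Adam9 encodes a membrane metalloprotease that sheds surface proteins, Cacna2d1 an auxiliary subunit of voltage-gated calcium channels, and Tmtc3 a membrane enzyme that attaches O-mannose to cadherins. Cyrib encodes a protein that binds active Rac1 and restrains actin branching by the WAVE complex. Dynlt3 encodes a light chain of the dynein motor, Tprgl a vesicle-associated protein known from presynaptic terminals, and Hdac1 a class I histone deacetylase.

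The labels were first set against the targeted gene and against known markers. Klf4 had log2 values of 7.43 and 7.24 in siKlf4 arrays with TGFβ, 8.03 and 7.91 in siKlf4 arrays without it, 7.46 and 7.46 in siControl arrays with TGFβ, and 8.60 and 8.43 in siControl arrays without it. Between arrays without TGFβ, Klf4 was lower in siKlf4 (log2 difference −0.54, adjusted p = 0.00369 from limma), and with TGFβ the difference of −0.13 did not pass (adjusted p = 0.444 from limma). It was also lower in the arrays labelled TGFβ, by a log2 difference of −0.63 in siKlf4 (adjusted p = 0.00295 from limma) and −1.05 in siControl (adjusted p = 3.57e-04 from limma). A list of known TGFβ-induced genes had 22 measured members, of which 20 were called higher and 0 lower in siKlf4 than in siControl arrays, both with and without TGFβ. Of all genes, 12.3% were called higher and 11.9% lower in siKlf4 with TGFβ, and 9.98% higher and 9.71% lower without it. With the TGFβ label, 5 of these 22 were called higher and 1 lower in siKlf4 (6.01% and 6.87% of all genes), and 4 higher and 4 lower in siControl (5.81% and 6.65%). In siKlf4 the 5 became 3 without replicate 1 of siKlf4 without TGFβ and 2 without its replicate 2 or either replicate of siKlf4 with TGFβ. The 1 lower became 4 with the trend and robust options or without the dimmest 30% of genes. It became 3 with quantile or cyclic loess normalization, and 2 with the replicate block or only the 4 arrays compared. This count also grew without replicate 1 of siKlf4 without TGFβ and without either replicate of siControl without TGFβ. In siControl the 4 lower became 2 without replicate 1 of siControl without TGFβ or replicate 2 of siControl with TGFβ. Between siKlf4 and siControl, the median log2 difference of the 22 was 1.73 with TGFβ and 1.41 without it (−0.03 and 0.00417 over all genes). With the TGFβ label it was 0.14 in siKlf4 and −0.05 in siControl (−0.02 and 0.02 over all genes). The arrays are therefore named by their labels throughout, and whether the labels describe the treatment each array received was not tested. Krt8, Krt18 and Cdh1, which mark epithelial cells, were present, with log2 values from 13.04 to 13.42, 12.18 to 12.85 and 10.15 to 10.89. Epcam, at 3.88 to 4.09, and Cldn7, at 4.10 to 4.78, lay below the median of every array, which was 4.90 or higher. The leukocyte and endothelial markers measured lay between 2.89 and 5.20, except Cd68, which also serves lysosomes of other cells. Cd68 fell with the TGFβ label by a log2 difference of −1.09 in siKlf4 and −1.30 in siControl, and Cdh1 rose in siKlf4 by 0.67 (adjusted p = 6.10e-04 from limma) with 0.25 in siControl. Their part in the results below was not tested.

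Promoter sequences are shown as a description only. That the 7 genes moved together was part of their choice, so nothing is read from it. The RefSeq table (GRCm38.p6) matched 4 of the 7, each as a window from 250 bases before to 50 after the gene start. Capitals mark the GC box (GGGCGG, or CCGCCC on the other strand) and the CACCC box of Klf-type factors (CACCC, or GGGTG). The windows, 5′ to 3′ on the strand of the gene, are chr4:154160635-154160934 (minus) for Tprgl, chrX:9662934-9663233 (minus) for Dynlt3, chr10:100487298-100487597 (minus) for Tmtc3 and chr5:15934441-15934740 (plus) for Cacna2d1.
Tprgl: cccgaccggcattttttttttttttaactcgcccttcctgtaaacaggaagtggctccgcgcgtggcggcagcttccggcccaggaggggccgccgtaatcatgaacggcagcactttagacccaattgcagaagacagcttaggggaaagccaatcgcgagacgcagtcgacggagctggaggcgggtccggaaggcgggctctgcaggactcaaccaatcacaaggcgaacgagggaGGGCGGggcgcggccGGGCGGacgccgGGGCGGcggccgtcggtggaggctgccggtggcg
Dynlt3: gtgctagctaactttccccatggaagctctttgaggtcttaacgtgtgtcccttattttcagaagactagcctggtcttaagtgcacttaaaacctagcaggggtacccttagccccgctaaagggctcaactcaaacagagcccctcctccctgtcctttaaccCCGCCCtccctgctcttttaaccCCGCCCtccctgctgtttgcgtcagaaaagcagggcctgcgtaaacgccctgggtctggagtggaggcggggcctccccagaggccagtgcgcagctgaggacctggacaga
Tmtc3: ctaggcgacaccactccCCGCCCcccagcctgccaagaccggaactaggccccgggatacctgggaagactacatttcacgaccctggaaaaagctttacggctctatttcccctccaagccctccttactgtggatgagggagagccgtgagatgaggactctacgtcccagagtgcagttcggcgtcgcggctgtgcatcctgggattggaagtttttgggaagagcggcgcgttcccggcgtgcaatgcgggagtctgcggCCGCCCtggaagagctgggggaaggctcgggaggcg
Cacna2d1: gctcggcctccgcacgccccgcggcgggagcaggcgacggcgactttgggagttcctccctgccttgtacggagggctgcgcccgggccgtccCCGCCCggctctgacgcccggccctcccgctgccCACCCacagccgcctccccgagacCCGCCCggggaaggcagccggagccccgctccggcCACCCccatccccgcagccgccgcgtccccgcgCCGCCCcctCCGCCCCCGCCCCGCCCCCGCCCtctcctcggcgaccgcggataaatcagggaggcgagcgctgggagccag
All 4 windows held a GC box, with 3 in Tprgl, 2 in Dynlt3, 2 in Tmtc3 and 7, in part overlapping, in Cacna2d1. The GC box occurs in 35.9% of 32544 RefSeq windows of the same length. A CACCC box was found in Cacna2d1 alone, 2 times, and in 57.7% of all windows. The Smad-type letters CAGAC or GTCTG were found in Dynlt3 and Tmtc3 and in 49.5% of all windows. The E-box CACCTG (or CAGGTG) and the AP-1 letters TGACTCA (or TGAGTCA) were in none of the 4, as compared to 20.3% and 5.19% of all windows. The GC content was 65.3% in Tprgl, 57% in Dynlt3, 62.3% in Tmtc3 and 80% in Cacna2d1, beside a median of 53% over all windows. The windows held 34 CpG dinucleotides in Tprgl, 9 in Dynlt3, 22 in Tmtc3 and 42 in Cacna2d1, beside a median of 7. A match of letters does not show that a factor binds there.

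All 7 genes were higher in the siKlf4 arrays labelled TGFβ than in the siKlf4 arrays without it. The rule that chose the genes names siControl arrays only, but the 7 were picked with earlier results of all arrays known. They are not the 7 largest siControl rises, since Upk1b and Arhgef26, each with a log2 difference of −0.20 in siKlf4, rank above 5 and 4 of them and were not picked, nor was Mmp13, with 2.29 in siKlf4. The count below is therefore not independent of the siKlf4 arrays. In limma, 7 of 7 were called higher and 0 lower at an adjusted p under 0.05, whereas 6.01% of all genes were called higher in this comparison and 6.87% lower. The rises were between 2.48-fold and 4.63-fold, and at least 2-fold in all 7, as compared to 0.421% of all genes called with at least a 2-fold rise. The median log2 difference of the 7 was 1.65, beside −0.02 over all genes. Both siKlf4 arrays with TGFβ lay above both without it for 7 of 7, which was so for 22.8% of all genes. When only these 4 arrays entered the fit, so that no siControl array set the spread, all 7 were again called (adjusted p from 4.55e-04 to 0.00129 from limma). In an unmoderated one-way analysis of variance on these 4 arrays alone, none of the 7 passed after Benjamini-Hochberg adjustment (adjusted p from 0.128 to 0.185). All 7 had an unadjusted p under 0.05. The methods of the study name a one-way analysis of variance but neither the arrays that entered it nor an adjustment. Whether it was the same test is not known.

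**Figure D1:**
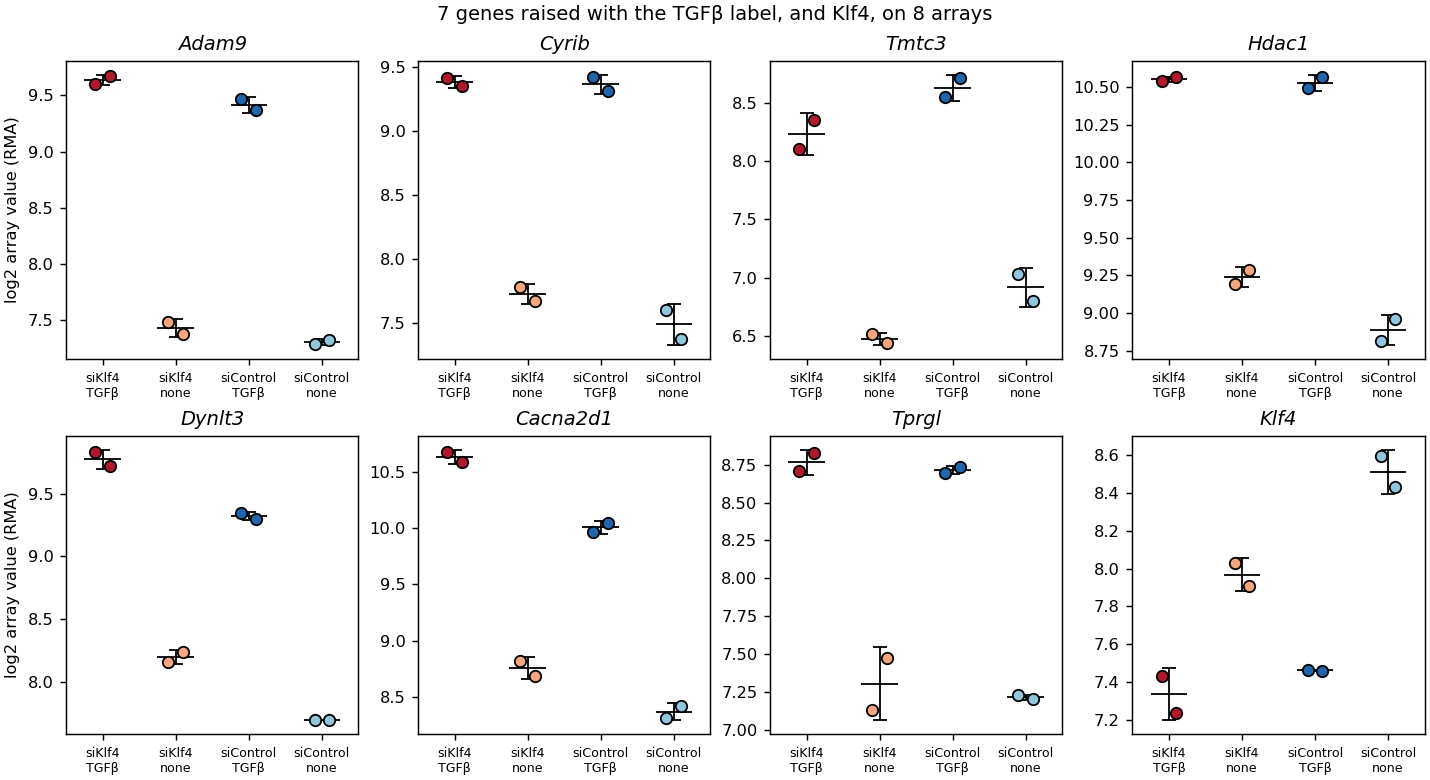
Log2 array values (y axis, 1 range per panel) of the 7 genes and of Klf4 in the 4 labelled groups (x axis). Each circle is 1 array, each short line the mean of 2 arrays, and each bar 1 SD to either side. For each of the 7 genes the 4 arrays labelled TGFβ lie at least 1.06 above the highest array without it, while Klf4 runs the other way.

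Among the membrane proteins, Adam9 showed the largest rise of the 7. It had log2 values of 9.60 and 9.67 in siKlf4 arrays with TGFβ, 7.48 and 7.37 in siKlf4 arrays without it, 9.47 and 9.37 in siControl arrays with TGFβ, and 7.28 and 7.32 in siControl arrays without it. The 4 arrays labelled TGFβ were high and the other 4 low, with no overlap. The difference in siKlf4 was 2.21 (standard error 0.0831, 95% interval 2.02 to 2.40, adjusted p = 1.07e-05 from limma), and that in siControl, on which the gene was chosen, was 2.11. The order of the groups was siKlf4 with TGFβ, siControl with TGFβ, siKlf4 and siControl, and no neighbours in it overlapped.

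Cacna2d1, the calcium channel subunit, had values of 10.68 and 10.58 in siKlf4 arrays with TGFβ, 8.82 and 8.68 in siKlf4 arrays without it, 9.97 and 10.04 in siControl arrays with TGFβ, and 8.31 and 8.42 in siControl arrays without it. It followed the same order of groups as Adam9, again with no overlap between neighbours. The rise was 1.88 in siKlf4 (standard error 0.0883, 95% interval 1.68 to 2.08, adjusted p = 1.93e-05 from limma) and 1.64 in siControl. A further probe set of Cacna2d1 gave log2 differences of 1.55 and 1.50 in siKlf4 and siControl.

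Tmtc3, the O-mannosyltransferase, had values of 8.10 and 8.36 in siKlf4 arrays with TGFβ, 6.52 and 6.44 in siKlf4 arrays without it, 8.55 and 8.71 in siControl arrays with TGFβ, and 7.04 and 6.80 in siControl arrays without it. It was the one gene of the 7 whose siKlf4 arrays lay below the siControl arrays at the same TGFβ label, both with and without TGFβ. Its rise was 1.75 in siKlf4 (standard error 0.117, 95% interval 1.49 to 2.02, adjusted p = 5.10e-05 from limma) and 1.71 in siControl.

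Among the proteins of the cytoplasm, Cyrib, the Rac1-binding protein, had values of 9.41 and 9.35 in siKlf4 arrays with TGFβ, 7.78 and 7.67 in siKlf4 arrays without it, 9.42 and 9.31 in siControl arrays with TGFβ, and 7.60 and 7.37 in siControl arrays without it. The siKlf4 and siControl arrays with TGFβ overlapped, and all 4 lay above the arrays without it. The rise was 1.65 in siKlf4 (standard error 0.0990, 95% interval 1.43 to 1.88, adjusted p = 3.23e-05 from limma) and 1.88 in siControl.

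Dynlt3, the dynein light chain, had values of 9.83 and 9.72 in siKlf4 arrays with TGFβ, 8.16 and 8.24 in siKlf4 arrays without it, 9.35 and 9.30 in siControl arrays with TGFβ, and 7.69 and 7.70 in siControl arrays without it. The 4 groups were apart from each other, with siKlf4 above siControl at each TGFβ label. The rise was 1.58 in siKlf4 (standard error 0.0800, 95% interval 1.40 to 1.76, adjusted p = 1.93e-05 from limma) and 1.63 in siControl.

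Tprgl had the smallest rise of the 7 in siControl. Its values were 8.71 and 8.83 in siKlf4 arrays with TGFβ, 7.13 and 7.48 in siKlf4 arrays without it, 8.70 and 8.73 in siControl arrays with TGFβ, and 7.23 and 7.20 in siControl arrays without it. At each TGFβ label the siKlf4 and siControl arrays overlapped, and the siKlf4 arrays without TGFβ differed from each other more than the 2 arrays of any other group in these 7 genes (SD 0.243). The rise was 1.46 in siKlf4 (standard error 0.113, 95% interval 1.21 to 1.72, adjusted p = 9.33e-05 from limma) and 1.50 in siControl.

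Hdac1, the nuclear enzyme that removes acetyl groups from histones, had values of 10.54 and 10.56 in siKlf4 arrays with TGFβ, 9.19 and 9.28 in siKlf4 arrays without it, 10.49 and 10.57 in siControl arrays with TGFβ, and 8.82 and 8.96 in siControl arrays without it. The arrays with TGFβ overlapped between siKlf4 and siControl, and the siKlf4 arrays without TGFβ lay above the siControl arrays without it. The rise was 1.31 in siKlf4, the smallest of the 7 there (standard error 0.0853, 95% interval 1.12 to 1.51, adjusted p = 4.71e-05 from limma), and 1.64 in siControl. A further probe set with the symbol Hdac1 gave log2 differences of 1.42 and 1.75. RefSeq also lists a pseudogene, Hdac1-ps, and whether the probe sets tell it from Hdac1 was not tested.

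**Figure D2:**
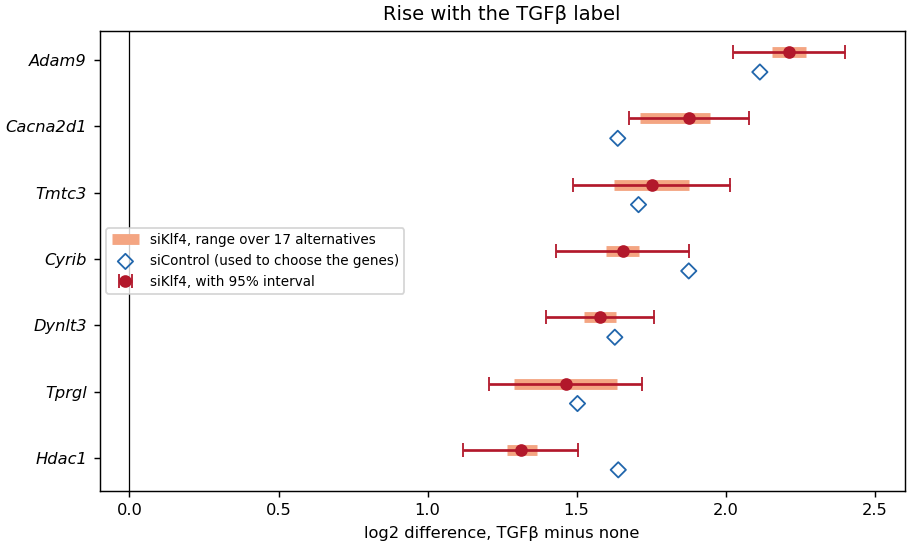
Log2 difference between arrays with and without TGFβ (x axis) for each gene (y axis). Filled circles are siKlf4 arrays with the 95% interval of the limma fit, thick bars the range over 17 alternative settings, and open diamonds the siControl difference on which the genes were chosen. The siKlf4 intervals start at 1.12 or higher. The siControl diamond lies above the siKlf4 interval for Hdac1 and below it for Cacna2d1.

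The rises in siKlf4 and in siControl are set side by side here. The 7 were picked with earlier results of all arrays known, so nothing is read from how alike the rises are. The siControl rises, which chose the genes and are given without a test, lay between 1.50 and 2.11 on the log2 scale with a median of 1.64, and 5.81% of all genes were called higher and 6.65% lower in that comparison. The choice also fixed that both siControl arrays with TGFβ lay above both without it for all 7. Over all genes this share was 27.3%, and rises of at least 2-fold were called in 0.406%. The rise in siKlf4 minus that in siControl ranged from −0.33 for Hdac1 to 0.24 for Cacna2d1. It was below 0 for Hdac1, Cyrib, Dynlt3 and Tprgl and above 0 for Adam9, Tmtc3 and Cacna2d1. For 7 of 7 genes, all 4 arrays labelled TGFβ lay above all 4 arrays without it. The share over all genes was 4.84%, but the siControl arrays among them chose the genes, so nothing is read from the difference. The gap between the lowest array with TGFβ and the highest without it was between 1.06, in Dynlt3, and 1.88, in Adam9.

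The 7 genes also differed in level between siKlf4 and siControl arrays at the same TGFβ label. Both comparisons hold arrays that chose the genes, so only values are given. Without TGFβ, the log2 difference between siKlf4 and siControl ranged from −0.44 in Tmtc3 to 0.50 in Dynlt3, and with TGFβ from −0.40 in Tmtc3 to 0.62 in Cacna2d1. Whether the control siRNA itself has a part in these levels was not tested. In bulk RNA, fewer cells of a type and less RNA per cell cannot be told apart.

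The 7 genes are among the 10 largest of all rises in siControl, and the other 3 of these 10 did not all behave alike in siKlf4. These and the genes just outside were chosen by their siControl values and are described without a test. Mmp13, a collagenase gene, had values of 8.22 and 8.11 in siKlf4 arrays with TGFβ, 5.91 and 5.85 in siKlf4 arrays without it, 9.83 and 9.77 in siControl arrays with TGFβ, and 7.89 and 7.73 in siControl arrays without it. It was higher with TGFβ in both siRNA groups, and lower in siKlf4 than in siControl at each TGFβ label. The uroplakin gene Upk1b had log2 differences of −0.20 in siKlf4 and 1.80 in siControl, and Arhgef26 likewise −0.20 in siKlf4 and 1.69 in siControl. Just below Tprgl in that order were the lipid phosphatase gene Plpp3, with differences of 1.33 in siKlf4 and 1.48 in siControl, the matrix gene Tnc, with 0.59 and 1.46, and the aldo-keto reductase gene Akr1c14, with 0.28 and 1.46.

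**Figure D3:**
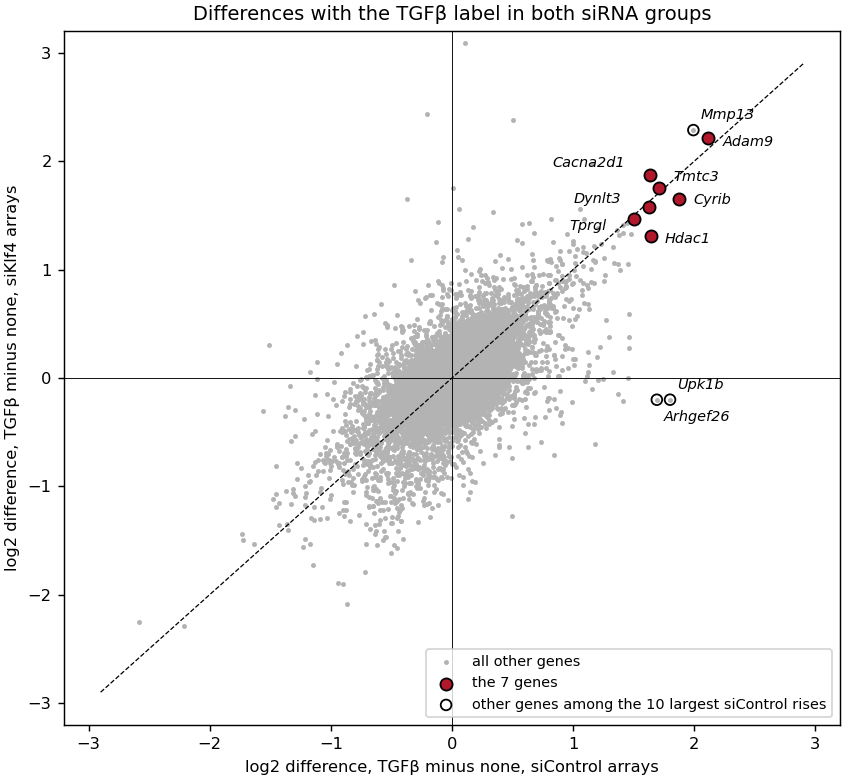
Log2 difference between arrays with and without TGFβ in siControl (x axis) and in siKlf4 (y axis) for 19937 genes (grey), with the 7 genes in red and the other 3 of the 10 largest siControl rises as open circles. The dashed line marks equal differences. The 7 genes lie near it, between 1.31 and 2.21 in siKlf4, while Upk1b and Arhgef26 lie near −0.20. The 7 were picked with earlier results of all arrays known, so nothing is read from this.

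Of 81 genes called at least 2-fold higher with TGFβ in siControl, 61 were called higher in siKlf4 as well, 1 was called lower and 19 were not called. The comparisons share no arrays, but they share the estimate of the spread. Without the 7 genes, 54 of 74 (73.0%) were called higher in siKlf4, with a median log2 difference of 0.88, against a background of 6.01% of all genes. At least 2-fold rises were called in both for 37 genes, which are 44.0% of the 84 such genes in siKlf4 and 45.7% of the 81 in siControl.

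Relatives of the 7 genes were called in siKlf4 at shares close to those of all genes. A list of 71 measured genes that share a family, complex or enzyme activity with one of the 7 was set beside the 7. Of these, 4 were called higher (5.63%) and 6 lower (8.45%) with TGFβ in siKlf4. The shares over all genes were 6.01% and 6.87%. In siControl 7 were called higher (9.86%) and 5 lower (7.04%), beside 5.81% and 6.65% over all genes. In siKlf4 the 4 became 2 without any 1 of the 6 arrays other than siControl without TGFβ, and the 6 lower became 2 without replicate 1 of siKlf4 with TGFβ. In siControl the 7 became 3 without replicate 1 of siControl with TGFβ, and 4 without its replicate 2, replicate 1 of siControl without TGFβ or either replicate of siKlf4 with TGFβ, while the 5 lower became 3 without replicate 1 of siControl without TGFβ or replicate 2 of siControl with TGFβ. Their median log2 difference in siKlf4 was −0.02, and the highest was 0.81. The ADAM list held 10 other genes, of which 0 were higher and 1 lower in siKlf4. That gene was Adam17, a sheddase like Adam9, with values of 7.63 and 7.48 in siKlf4 arrays with TGFβ and 8.23 and 8.22 without it (log2 difference −0.67, adjusted p = 0.00141 from limma). Adam10, another sheddase, had a difference of 0.24 (adjusted p = 0.142 from limma).

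Among 10 genes of Rac1 and the WAVE complex, 1 rose and 1 fell in siKlf4. Wasf2, a WAVE subunit, had values of 8.89 and 8.88 in siKlf4 arrays with TGFβ, 8.03 and 8.12 in siKlf4 arrays without it, 8.82 and 8.91 in siControl arrays with TGFβ, and 8.03 and 8.09 in siControl arrays without it. It was high in all 4 arrays with TGFβ and low in the other 4, and the siKlf4 and siControl arrays overlapped at each TGFβ label, with log2 differences of 0.81 in both siRNA groups. Abi2, an adaptor of the WAVE complex, fell by 0.71 in siKlf4 (adjusted p = 0.00571 from limma), a call that was lost without replicate 1 of siKlf4 with TGFβ (adjusted p = 0.0596 from limma). In siControl, Abi2 had a difference of −0.12 (adjusted p = 0.652 from limma). Cyria, the paralog of Cyrib, had a difference of −0.24 in siKlf4 (adjusted p = 0.322 from limma) and Rac1 one of −0.05. In siControl, Cyria fell by 0.81 (adjusted p = 0.00367 from limma), and Rac1 had a difference of 0.10.

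Of 7 genes of the TMTC family and of O-mannosylation, 2 rose in siKlf4 and 0 fell. They were Pomt2, at 0.30 (adjusted p = 0.0305 from limma), and Pomgnt1, at 0.28 (adjusted p = 0.0453 from limma), enzymes of the O-mannose pathway of dystroglycan. Both calls were lost when any 1 of the 6 arrays other than the siControl arrays without TGFβ was left out (adjusted p from 0.0585 to 0.170 for Pomt2 and from 0.0678 to 0.238 for Pomgnt1, from limma). The other TMTC genes Tmtc1, Tmtc2 and Tmtc4 had differences of 0.05, 0.22 and 0.15 in siKlf4, none of which passed. In siControl, Tmtc2 rose by 0.84 (adjusted p = 0.00111 from limma) and Tmtc4 by 0.40 (adjusted p = 0.0171 from limma). Tmtc1 had a difference of 0.17 there and did not pass (adjusted p = 0.359 from limma).

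Of 19 other genes of histone deacetylases and their corepressors, 1 rose and 2 fell in siKlf4. Sin3b, the scaffold of a complex that holds Hdac1, rose by 0.61 (adjusted p = 0.00196 from limma). Rcor1, a corepressor that also binds Hdac1, fell by 0.41 (adjusted p = 0.00866 from limma), and the call was lost without replicate 2 of siKlf4 without TGFβ (adjusted p = 0.0501) or replicate 1 of siKlf4 with TGFβ (0.0872). Hdac2, the closest paralog of Hdac1, had values of 10.17 and 10.16 in siKlf4 arrays with TGFβ and 10.32 and 10.22 without it, a difference of −0.11 (adjusted p = 0.502 from limma). Hdac3 had a difference of 0.17 (adjusted p = 0.249 from limma). In siControl, 1 of the 19 was called higher and 2 lower. Sin3b had a difference of 0.14 there (adjusted p = 0.390 from limma) and Rcor1 one of −0.50 (adjusted p = 0.00367 from limma).

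In the dynein list, 0 of 10 genes rose and 1 fell, the light chain gene Dynll2, at −0.57 (adjusted p = 0.00208 from limma). Of 14 measured calcium channel genes, 0 rose and 1 fell, the pore subunit gene Cacna1g, at −0.51 (adjusted p = 0.00483 from limma), which was lost without replicate 1 of siKlf4 with TGFβ (adjusted p = 0.0553 from limma). In siControl, Dynll2 fell by 0.43 (adjusted p = 0.00983 from limma), while Cacna1g had a difference of 0.22 (adjusted p = 0.146 from limma). The paralogs Cacna2d2, Cacna2d3 and Cacna2d4 had differences of 0.02, −0.05 and −0.12 in siKlf4. In siControl they had 0.08, −0.03 and 0.21, and none passed in either comparison. Tprg, the paralog of Tprgl, had a difference of −0.19 in siKlf4 (adjusted p = 0.342 from limma). Its difference in siControl was 0.38 (adjusted p = 0.0482 from limma). That call was lost with the replicate block, the trend and robust options, array weights, and quantile or cyclic loess normalization. It was also lost with all probe sets and with only the 4 arrays compared, and kept with means of probe sets. Among the TGFβ-induced genes, the largest differences among those that rose in siKlf4 were in the collagen gene Col4a1, at 0.91 (adjusted p = 2.70e-04 from limma), and in Edn1, which encodes endothelin, at 0.75 (adjusted p = 6.43e-04 from limma). Both are smaller than the smallest rise among the 7, but the 7 were chosen for large rises, so nothing is read from this. In siControl, Col4a1 rose by 0.85 (adjusted p = 5.64e-04 from limma), whereas Edn1 had a difference of −0.21 (adjusted p = 0.175 from limma).

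**Figure D4:**
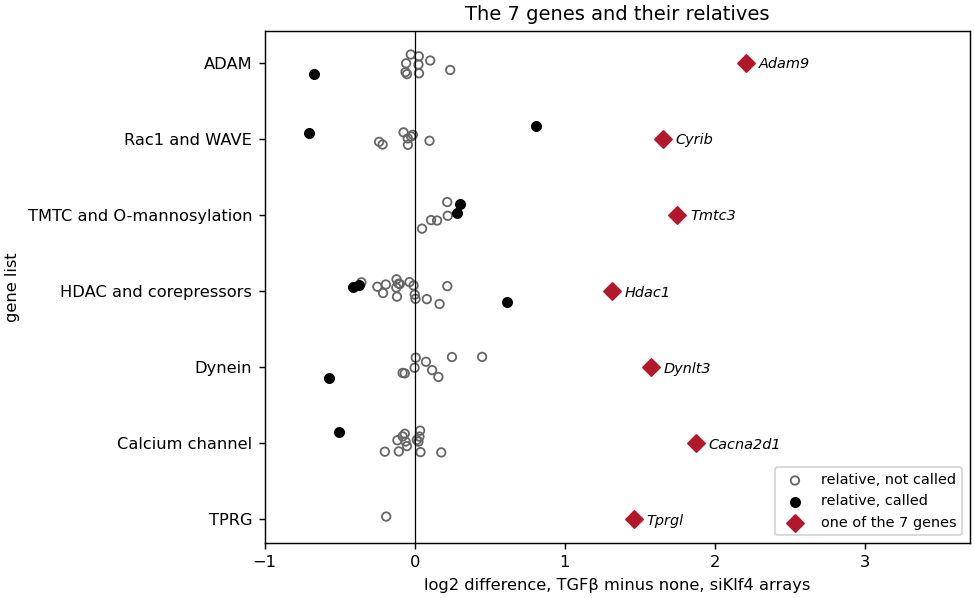
Log2 difference between siKlf4 arrays with and without TGFβ (x axis) by gene list (y axis). Circles are relatives, filled where called at an adjusted p under 0.05, with vertical scatter only to separate them, and diamonds are the 7 genes. The 7 genes lie at 1.31 or above and the highest relative, Wasf2, at 0.81. The 7 were chosen for large rises, so nothing is read from this gap.

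The genes most like the 7 were ranked by the root mean square difference between centred log2 values over the 8 arrays, against the mean profile of the 7. This is a description of these arrays and carries no test. Of 18640 other named genes, Brd7, a bromodomain gene of a chromatin remodelling complex, was nearest, at 0.184. Its values were 8.97 and 8.93 in siKlf4 arrays with TGFβ, 7.66 and 7.56 in siKlf4 arrays without it, 8.92 and 8.96 in siControl arrays with TGFβ, and 7.60 and 7.46 in siControl arrays without it. It was thus high in all arrays with TGFβ, with little difference between siKlf4 and siControl. Lonrf1 (0.196), Tmem65 (0.257), the nucleic acid binding protein gene Fubp3 (0.280), the heterochromatin protein gene Cbx1 (0.285), Elmod2 (0.320), the casein kinase gene Csnk1a1 (0.323), the aminopeptidase gene Npepl1 (0.323), Bmt2 (0.325) and Mapk8 (0.333) followed. All 10 had every array with TGFβ above every array without it, and their log2 differences were between 0.95 and 1.56 in siKlf4 and between 0.97 and 1.45 in siControl. Mapk8, which encodes the kinase Jnk1, had values of 7.91 and 7.83 in siKlf4 arrays with TGFβ, 6.78 and 6.62 in siKlf4 arrays without it, 7.60 and 7.59 in siControl arrays with TGFβ, and 6.73 and 6.52 in siControl arrays without it. The 7 genes themselves lay between 0.0897 (Cyrib) and 0.303 (Tmtc3) from their mean profile. Taken one by one, Lonrf1 was nearest to Adam9, Dynlt3 and Cacna2d1, Brd7 to Cyrib and Tprgl, Bmt2 to Tmtc3 and Tmem65 to Hdac1.

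**Figure D5:**
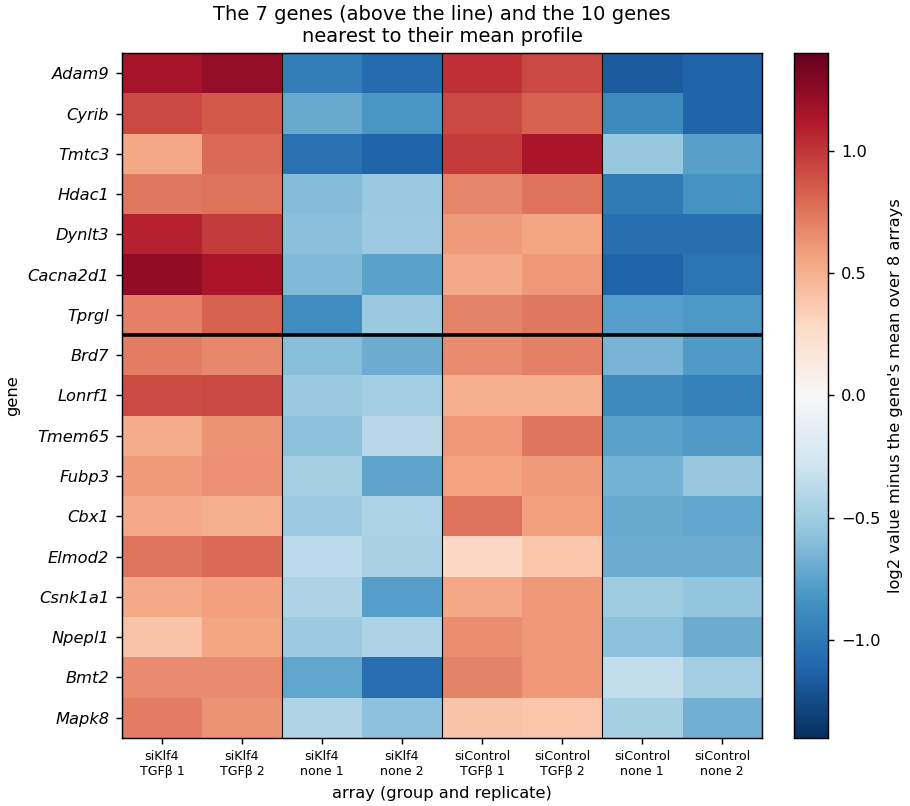
Log2 value minus the mean of the gene over the 8 arrays (colour) for the 7 genes above the line and the 10 genes nearest to their mean profile below it, by array (x axis). All 17 genes are above their mean in the 4 arrays labelled TGFβ and below it in the other 4.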

How the data were processed

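The 8 arrays were assigned to groups and replicates from the submitters' sample titles. The authors deposited log2 values, computed by RMA, which corrects background, normalizes quantiles and combines probes. oligo 1.14.0 is listed in the processing notes of the submitters. That the logarithm has base 2 was read from the range of the values. Background settings are not given in the sources used here. Of 34760 probe sets, 21640 had 1 symbol in the platform annotation, 1321 had several and 11799 were not named. The probe set with the highest mean was kept per gene, which left 19937 genes.

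Groups were compared in R 4.3.3 with limma 3.58.1 (a mean for each group, all 8 arrays, eBayes, Benjamini-Hochberg over all genes, threshold 0.05), with 4 residual and 4.93 prior degrees of freedom. The fit was tested on simulated data. Whether same-group arrays stem from separate transfections is not given in the sources used here, so p-values reflect array-to-array spread alone, possibly technical, and precision is limited by the array number. The members and lists were chosen with earlier results of these data known. Named genes are the 7 genes, Klf4, the 2 largest called differences per list, the nearest profiles (without clone or prediction names) and the neighbours of the lowest placed gene. Mmp13, Upk1b, Arhgef26, the markers and the paralogs were added after their values were seen. The alternatives were the replicate block, only the 4 arrays compared, trend and robust options, array weights, and quantile and cyclic loess normalization. Further ones were an unmoderated one-way analysis of variance on the 4 arrays compared and a filter on the dimmest 30% of genes. Means of probe sets, all probe sets and each array left out were also used.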

Additional observations from a re-analysis of the deposited data

How the results depend on the processing

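All 7 genes kept their direction and their call in siKlf4 under 17 of the alternatives, with log2 differences from 1.27 to 2.27 and an adjusted p of at most 0.00193 from limma. The exception was the one-way analysis of variance on the 4 arrays compared, which takes the spread of each gene from those arrays alone. There 0 of 7 were called higher (7 at an unadjusted p under 0.05), and over all genes 0 were called higher and 2 lower in siKlf4 (1602 and 1861 unadjusted) and 0 higher and 0 lower in siControl (1758 and 1744 unadjusted). With 1 array left out, 7 of 7 were called higher and 0 lower each time. The count over all genes then lay between 498 and 1266 higher and 683 and 1434 lower in siKlf4, as compared to 1199 and 1370 with all arrays, with 613 and 683 without replicate 1 of siKlf4 with TGFβ and 498 and 776 without replicate 2. In siControl it lay between 481 and 1193 higher and 567 and 1352 lower, as compared to 1158 and 1326, with 539 and 567 without replicate 1 of siControl with TGFβ, 481 and 609 without replicate 2, and 726 lower without replicate 1 of siControl without TGFβ. Of the 81 and 61 genes called in siControl and also in siKlf4, a result added after the data were seen, between 71 and 100 and between 52 and 76 were called under the other alternatives, and 0 and 0 in the analysis of variance.

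With the replicate number as a block, 7 of 7 were called higher and 0 lower, and over all genes 1234 higher and 1386 lower in siKlf4 and 1211 and 1349 in siControl. The labels do not say what a number marks. Deviations from the group means of same-numbered arrays correlated at 0.38 between siKlf4 and siControl without TGFβ. For the other 5 pairs the correlation lay between −0.05 and 0.04. Same-numbered arrays of siKlf4 and siControl without TGFβ may therefore share more than a number, and the cause was not tested. The main fit has no replicate block. The 80 differences of other named genes gave 1434 values under the alternatives. Of these, 1326 kept their side of the threshold, 101 lost the call and 7 gained it. Of the differences called in the main or the alternative fit, 0 turned sign. Sign changes of differences called in neither were not counted.
The lists gave 0 calls in either comparison under the analysis of variance. With the trend and robust options the relatives had 8 higher and 8 lower in siKlf4.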
